A study of Drosophila melanogaster and Drosophila simulans and Drosophila yakuba with 8 samples.

Results

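The genes described here encode subunits of the mitochondrial protein import translocases of Drosophila melanogaster, with the paralogs of those subunits. They were listed by their current FlyBase symbols as Tim17a1, Tim17a2, Tim17b, Tim17b1, Tim17b2, Tim23, Tom20, Tom40, tomboy20 and tomboy40. Of these 10 genes, 8 were found among the 15178 gene identifiers of the expression files, and Tim17b and Tim23, whose current identifiers matched no row, were not analysed here. Messenger RNA of dissected adult testes was sequenced in 6 D. melanogaster libraries of the Oregon-R strain, from flies aged 1 to 7 days, with 2 libraries in each group. In the Zeus knockdown group the driver nosGal4, which is active in germ cells, expressed an RNA interference construct against Zeus (nosGal4>>UAS-Zeus-RNAi), in the Caf40 knockdown group it expressed one against Caf40 (nosGal4>>UAS-Caf40-RNAi), and the remaining group was wildtype and carried neither. The current symbols are Rcd-1 for Caf40, which belongs to the CCR4-NOT deadenylase complex, and Rcd-1r for its retrocopy Zeus. Driver-only testes were not analysed here. Nothing in the labels ties the replicates to separate flies, and the spread that p-values are measured against may therefore be technical.

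Most mitochondrial proteins are made in the cytosol and enter the organelle through the TOM complex of the outer membrane. In that complex Tom20 recognises the presequences of precursor proteins and Tom40 forms the channel. Precursors bound for the matrix then cross the inner membrane through the TIM23 complex, whose core is built from Tim23 and proteins of the Tim17 family. Drosophila carries male germline paralogs of outer membrane subunits, tomboy20 for Tom20 and tomboy40 for Tom40, and several Tim17 genes. During spermatid development the mitochondria fuse into a large structure beside the nucleus and later elongate along the sperm tail. How testis transcripts of the general subunits and of the copies responded when each Caf40 copy was knocked down is the question that the comparisons address for these genes.

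The libraries held between 12662615 and 24429722 reads assigned to genes, and each of the 8 genes had between 336 and 8908 reads in every library. Levels are given as RPKM, reads per kilobase of the gene length listed in the files, scaled to the total reads of the library. For Rcd-1r the levels were 4.05 and 4.04 RPKM in Zeus knockdown testes, 135 and 114 RPKM in Caf40 knockdown testes and 22.2 and 26.4 RPKM in wildtype. For Rcd-1 they were 79.3 and 77.9 RPKM in Zeus knockdown testes, 25.7 and 23.3 RPKM in Caf40 knockdown testes and 98.2 and 95.1 RPKM in wildtype, so each targeted gene was lowest in the libraries labelled with its knockdown. In the current annotation Rcd-1r lies wholly within exons of a gene on the opposite strand, CG13102, and the use of strand in counting was not given in the sources used here. The Caf40 knockdown replicates differed more than the others, with a chi-square per degree of freedom across genes of 14.5, against 2.06 between the Zeus knockdown replicates and 5.15 between the wildtype replicates. Fold changes come from edgeR's quasi-likelihood test with TMM scaling, fitted to the 10223 genes with a mean of at least 1 RPKM over the 6 libraries, with Benjamini-Hochberg adjustment over all of them and a threshold of 0.05.

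All 8 genes were well expressed in testis, and the outer membrane copies were more abundant per length than the general subunits. In wildtype, tomboy20 was the most abundant, at 483 and 508 RPKM, above about 99.0% of all listed genes in both libraries. The channel copy tomboy40 came next, with 282 RPKM in each wildtype library, ahead of Tom20 with 221 and 226 RPKM. Among the inner membrane genes the order was Tim17b2 (142 and 139.7 RPKM), Tim17a1 (122 in each), Tim17b1 (86.4 and 82.8) and Tim17a2 (58.1 and 53.1). Tom40 was lowest, with 53.7 and 53.6 RPKM. In this order only the last neighbours, Tim17a2 and Tom40, overlapped between replicates. The order depends on the lengths, because the length listed for Tim17b2 is 2.03 times its exon length in the current annotation and that of Tim17a2 is 1.85 times. Per kilobase of current exon length, an alternative chosen after seeing the data, Tim17b2 would stand at 286 RPKM and tomboy40 at 284 RPKM in wildtype, and Tim17a2 at 103 RPKM would stand above Tim17b1 at 84.9 RPKM. These values divide the same reads by the current length, and any reads from listed bases outside the current exons were not separated. Length as a divisor cancels in fold changes between groups, but such reads would enter them.

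**Figure D1:**
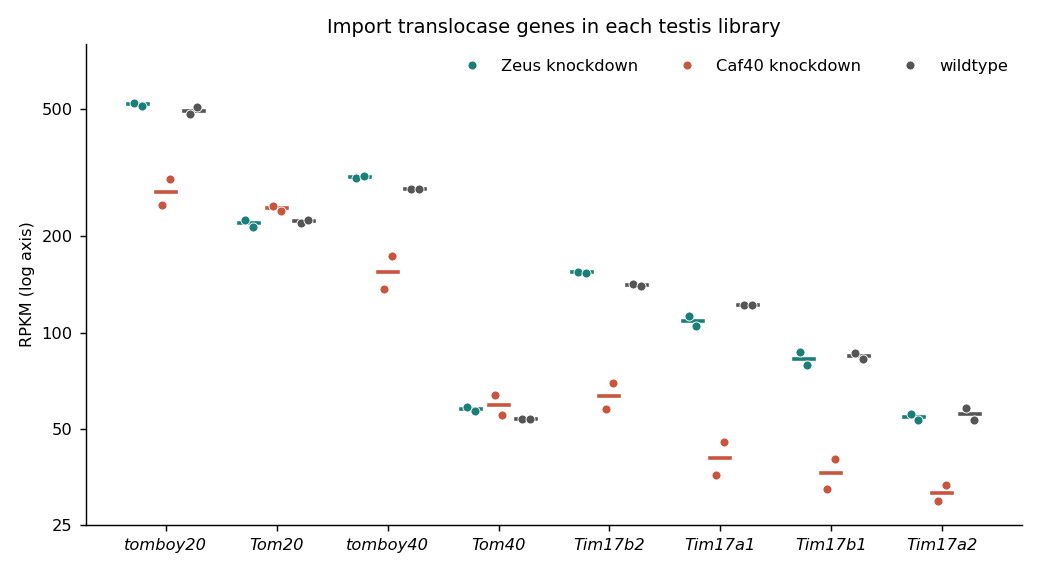
RPKM on a log axis of the 8 genes, with 1 point per library and a bar at the mean of the 2 libraries of each group, in the order Zeus knockdown, Caf40 knockdown and wildtype. The Caf40 knockdown points lie below both other groups for tomboy20, tomboy40 and the 4 Tim17 genes, and close to them for Tom20 and Tom40.

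The genes differed in exon number. The current annotation gives 1 exon to tomboy20, tomboy40, Tim17a1 and Tim17b2, and these genes had 0 reads on exon junctions among 31293, 37127, 11169 and 23743 reads over the 6 libraries. Tim17b1, with 3 exons in its longest transcript, had 5.80% of its reads on junctions, Tom20 with 4 exons had 7.13%, and Tom40 with 5 exons had 5.20%. Tim17a2 has 2 exons in the current annotation and 0 junction reads in the files, where its listed length is longer than its current exons. Tom40 is on the X chromosome, Tom20 on arm 3L, tomboy40 on 2R and Tim17b2 on 2L. The remaining genes, tomboy20, Tim17a1, Tim17a2 and Tim17b1, are on 3R. Tom20 shares 29 exonic bases with Gabat on the opposite strand, which averaged 2.40 RPKM in wildtype. No current exon of another gene overlaps the current exons of the other 7 genes. Listed bases outside the current exons were not checked for overlap. The treatment of reads that match more than 1 place was not given in the sources used here.

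In the Caf40 knockdown the outer membrane copies and the 4 measured Tim17 genes fell, while Tom20 and Tom40 did not pass the test. Of the 8 genes, 6 fell and 0 rose, where 38.6% of all tested genes fell and 41.9% rose. In the TMM fit each of these 6 was lower by more than 2-fold, where 17.4% of all tested genes fell by at least that much. With library totals as the scale only Tim17a1, Tim17b1 and Tim17b2 passed that size (12.9% of all tested genes did). The same 3 did so with limma on log2(RPKM + 1) (10.6%) and on log2(RPKM + 0.1) (12.8%). All 6 falls were still called in these fits. Without Caf40 knockdown replicate 1 the fold change reached that size only in the same 3, and without wildtype replicate 1 that of Tim17a2 did not. The median log2 fold change of the 8 genes was -1.08, beside a median of 0.06 over all tested genes. The comparison concerns messenger RNA of whole testes, in which fewer cells of a type and less RNA per cell cannot be told apart.

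The receptor copy tomboy20 measured 251 and 302 RPKM in the Caf40 knockdown, against 483 and 508 RPKM in wildtype. Its levels in the knockdown lay well below both wildtype libraries (log2 fold change -1.07, SE 0.12, adjusted p = 7.65e-07 by edgeR). The general receptor Tom20 measured 249 and 241 RPKM in the Caf40 knockdown and 221 and 226 RPKM in wildtype. Both knockdown libraries were thus slightly higher in RPKM, whereas the log2 fold change after TMM scaling was -0.10 (SE 0.09, 95% interval -0.29 to 0.10, adjusted p = 0.342). The sign for Tom20 depended on the scaling. With library totals as the scale it was 0.13 (adjusted p = 0.171), and with all libraries brought to 1 median RPKM it was -0.40, which passed (adjusted p = 0.00168).

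The channel copy tomboy40 measured 136 and 173 RPKM in the Caf40 knockdown, against 282 RPKM in each wildtype library. The groups did not overlap (log2 fold change -1.09, SE 0.12, adjusted p = 1.31e-06 by edgeR). Its general counterpart Tom40 measured 63.5 and 55.3 RPKM in the Caf40 knockdown and 53.7 and 53.6 RPKM in wildtype. Tom40, which forms the general channel of the outer membrane, did not pass (log2 fold change -0.08, SE 0.09, 95% interval -0.28 to 0.11, adjusted p = 0.393), and its sign also depended on the scaling, with 0.14 by library totals (adjusted p = 0.174) and -0.39 with equal medians (adjusted p = 0.00152).

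Because both members of a pair are measured in the same library, their ratio does not depend on how libraries are scaled. Transcripts of tomboy20 made up 50.2% and 55.6% of the summed RPKM of tomboy20 and Tom20 in the Caf40 knockdown, against 68.6% and 69.2% in wildtype. For tomboy40 and Tom40 the share of the copy was 68.2% and 75.8% in the Caf40 knockdown, against 84.0% in each wildtype library. The copy thus fell relative to the general gene by 0.98 on the log2 scale for the Tom20 pair and by 1.02 for the Tom40 pair, and the groups did not overlap in either. With 2 libraries against 2, the exact permutation test cannot go below its value here, p = 0.333 two-sided, so these differences are a description. Left without Caf40 knockdown replicate 1 or 2, they were -0.82 and -1.14 for the Tom20 pair and -0.75 and -1.29 for the Tom40 pair. The summed RPKM of the Tom20 pair was 499.8 and 543 in the Caf40 knockdown, against 703 and 733 in wildtype. Shares and sums of the pairs likewise rest on the listed lengths.

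**Figure D2:**
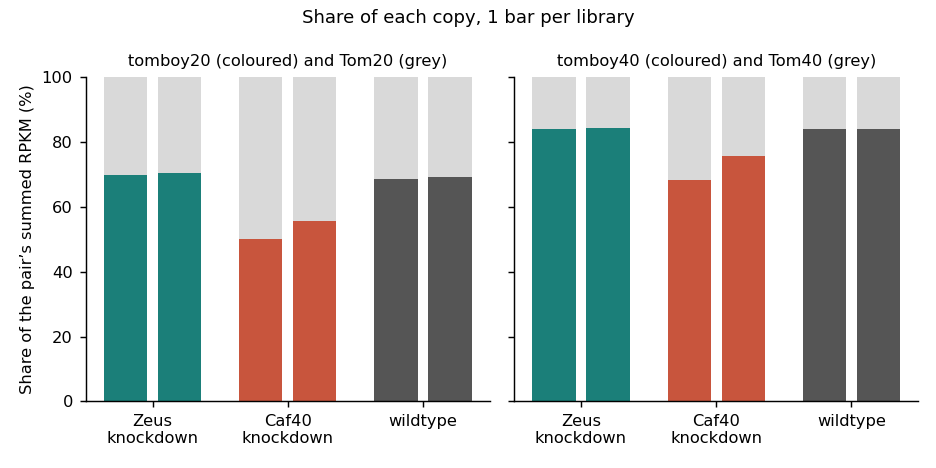
Share of the summed RPKM of each pair taken by the copy (lower part of each bar) and the general subunit (light grey upper part), in percent, with 1 bar per library. The copies take 50.2% and 55.6% (tomboy20) and 68.2% and 75.8% (tomboy40) in the Caf40 knockdown, below every library of the Zeus knockdown and wildtype.

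Among the Tim17 genes, which encode inner membrane channel subunits, Tim17a1 changed most in the Caf40 knockdown. It measured 35.8 and 45.5 RPKM there, against 122 RPKM in each wildtype library (log2 fold change -1.80, SE 0.12, adjusted p = 5.8e-09 by edgeR), and 4.08% of all tested genes had a more negative fold change. Tim17b1 measured 32.4 and 40.2 RPKM in the Caf40 knockdown, against 86.4 and 82.8 RPKM in wildtype. Its log2 fold change was -1.44 (SE 0.12, adjusted p = 3.57e-08). Tim17b2, the most abundant gene of the family in these libraries, measured 57.5 and 69.4 RPKM in the Caf40 knockdown, against 142 and 139.7 RPKM in wildtype, a log2 fold change of -1.37 (SE 0.12, adjusted p = 5.01e-08). The smallest fall of the family was that of Tim17a2, with 29.6 and 33.3 RPKM in the Caf40 knockdown, against 58.1 and 53.1 RPKM in wildtype, a log2 fold change of -1.05 (SE 0.10, adjusted p = 2.94e-07). In each of the 4 genes the knockdown libraries lay below both wildtype libraries. How often that held over all tested genes was not counted, so it does not set these 4 genes apart.

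Summed over the 4 Tim17 genes, the level was 155 and 188 RPKM in the Caf40 knockdown, against 408 and 397 RPKM in wildtype. Tim17a1 took 23.0% and 24.1% of that sum in the Caf40 knockdown, against 29.8% and 30.6% in wildtype, and Tim17a2 took 19.1% and 17.7%, against 14.2% and 13.4%. The shares of Tim17b1 and Tim17b2 moved less, the first at 20.8% and 21.3% in the Caf40 knockdown against 21.1% and 20.8% in wildtype, and the second at 37.0% and 36.8% against 34.8% and 35.2%. The 4 measured genes thus all fell, with a lower share of Tim17a1 and a higher share of Tim17a2 in both knockdown libraries. The sums and shares of this family, here and in the Zeus knockdown, rest on the listed lengths. Those of Tim17b2 and Tim17a2 are 2.03 and 1.85 times the current exon lengths, so the sums and shares would differ with current lengths.

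Every one of the 6 genes that fell was lower in Caf40 knockdown replicate 1 than in replicate 2. Without replicate 1 their log2 fold changes were between -1.61 (Tim17a1) and -0.90 (tomboy40), and without replicate 2 between -2.04 (Tim17a1) and -1.19 (Tim17a2), and all 6 passed the test each way. The genes of germ cell stages also differed between these groups. Of 8 spermatocyte genes, 8 fell in the Caf40 knockdown, with a summed level of 261 to 277 RPKM against 590 to 604 RPKM in wildtype. Of 11 spermatid genes 6 fell and 0 rose, with a summed level of 13054 to 14677 RPKM against 14169 to 14452 RPKM. The spermatid sum hides a split in RPKM. Mst87F measured 2927 and 3215 RPKM in the Caf40 knockdown against 2567 and 2708 RPKM in wildtype, whereas soti measured 97.7 and 127 RPKM against 390 and 337 RPKM. Of 4 genes of stem cells and spermatogonia, 3 rose and 1 fell, with a summed level of 117 to 141 RPKM against 53.4 to 55.5 RPKM. In that list bam, which ends the spermatogonial divisions, measured 41.0 and 32.1 RPKM in the Caf40 knockdown and 3.41 and 3.23 RPKM in wildtype. The 1 gene that fell was bgcn, at 35.2 and 33.0 RPKM in the Caf40 knockdown against 46.9 and 45.3 RPKM in wildtype. No gene of these 3 lists had 0 reads in either group. Of 5 muscle sheath genes 4 rose, with a summed level of 68.7 to 91.0 RPKM against 37.6 to 39.0 RPKM, and of 6 genes of cyst and hub cells 2 rose and 3 fell, with 48.1 to 48.9 RPKM against 41.9 to 43.4 RPKM. Of 3 tested accessory gland genes 2 fell, and the list of 5 summed to 1.91 to 2.18 RPKM in the Caf40 knockdown against 7.98 to 8.89 RPKM in wildtype, and SP had 0 reads in the knockdown. Of 2 tested fat body genes 2 fell, and that list summed to 2.85 to 3.25 RPKM against 4.59 to 7.11 RPKM. What part these shifts have in the falls of the import genes was not tested.

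The remaining import machinery was measured through 27 other genes, of which 26 were tested and ttm50 matched no row. In the Caf40 knockdown 20 of the 26 fell and 1 rose, where 38.6% of all tested genes fell, with a median log2 fold change of -0.45. In the TMM fit 3 of them were lower by at least 2-fold, where 17.4% of all tested genes fell by that much, and this count was 0 with library totals as the scale or without Caf40 knockdown replicate 1, 8 with equal medians and 6 without Caf40 knockdown replicate 2. These were Hsp60B and Hsp60C, chaperonin copies needed for spermatogenesis, and ttm3, a relative of the TIM23 receptor Tim50. Hsp60C measured 522 and 638 RPKM in the Caf40 knockdown, against 1065 and 1037 RPKM in wildtype, a log2 fold change of -1.08 (SE 0.13, adjusted p = 2.73e-06 by edgeR). Hsp60B measured 374 and 430 RPKM in the Caf40 knockdown and 720 and 695 RPKM in wildtype, a log2 fold change of -1.04. Transcripts of ttm3 were at 74.2 and 94.9 RPKM in the Caf40 knockdown and 143 and 148 RPKM in wildtype, 2.01-fold lower in the fit. The general chaperonin Hsp60A, which folds imported proteins in the matrix, measured 179 and 175 RPKM in the Caf40 knockdown and 162 and 159 RPKM in wildtype and did not pass (log2 fold change -0.09, adjusted p = 0.386).

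Of the other 23 genes, those with the smallest p were Tim13, ttm2, Tom70, mge, CG11779 and CG9393. Tim13, a small chaperone of the intermembrane space, measured 191 and 225 RPKM in the Caf40 knockdown, against 325 and 347 RPKM in wildtype, a log2 fold change of -0.91 (SE 0.11, adjusted p = 2.06e-06). Of the outer membrane receptors, Tom70 and mge fell, whereas Tom20, described above, did not pass. Tom70, which receives carrier precursors, measured 139 and 154 RPKM in the Caf40 knockdown against 235 and 226 RPKM in wildtype (log2 fold change -0.88), and mge, the fly Tom22, measured 207 and 231 RPKM against 315 and 328 RPKM (log2 fold change -0.78). The Tim50 relative ttm2 fell by 0.91 on the log2 scale, CG11779 by 0.74 and CG9393 by 0.66. The single rise was in CG8004, at 26.8 and 27.1 RPKM in the Caf40 knockdown and 20.6 and 18.6 RPKM in wildtype (log2 fold change 0.23, adjusted p = 0.0417), and the call was kept under 7 of 16 alternatives. CG8004 was named because it was the only rise, after its values were seen, as were the 5 genes that did not pass, CG7394, Hsp60A, Tim8, Tim9a and UQCR-C1, whose log2 fold changes lay between -0.21 and -0.03. The balance of the list moved with the scaling, to 14 falls and 1 rise with library totals and 25 falls and 0 rises with equal medians.

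**Figure D3:**
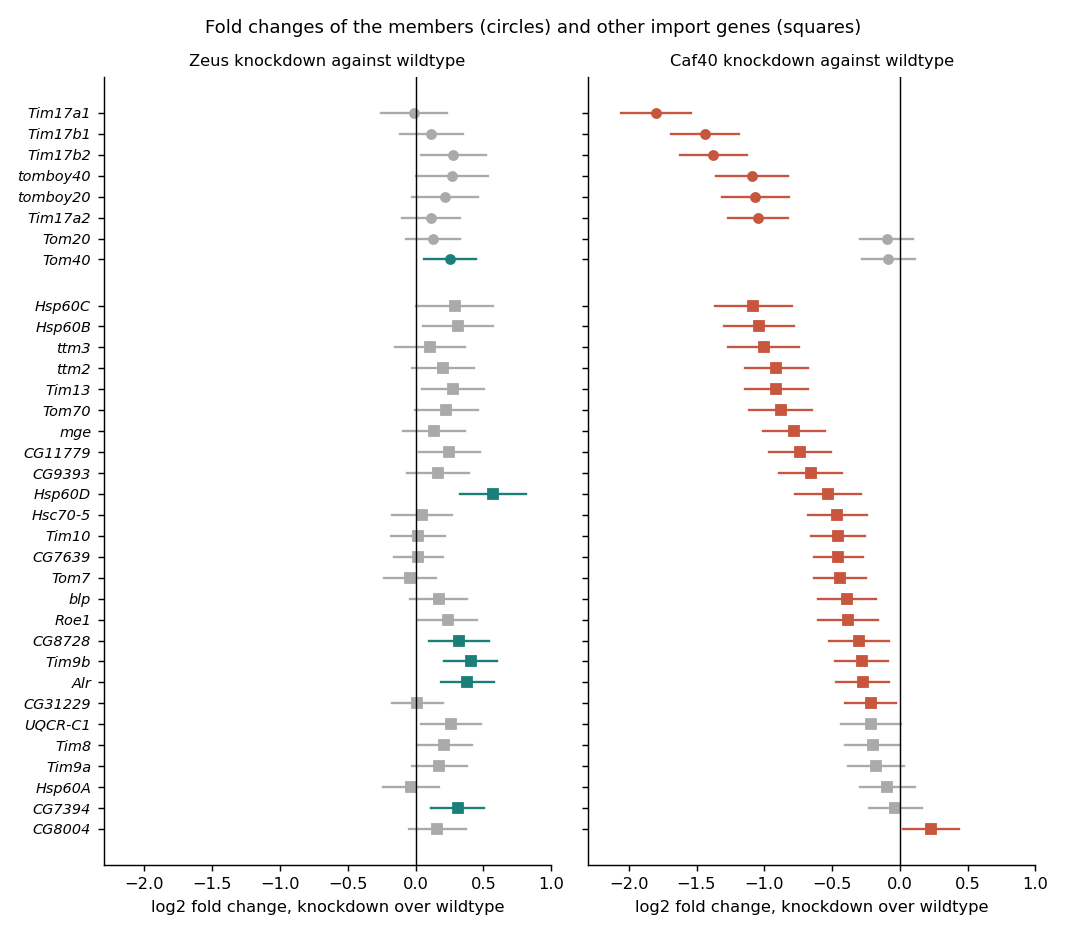
Log2 fold change, knockdown over wildtype, with its 95% interval for the 8 genes (circles) and the 26 other import genes (squares), in the Zeus knockdown (left) and the Caf40 knockdown (right). Coloured points passed the adjusted p of 0.05 and grey points did not. The 6 genes that fell reach from -1.80 to -1.05 on the right, while on the left all 8 genes lie between -0.01 and 0.28.

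In the Zeus knockdown most of these genes did not pass the test. Of the 8 genes, 1 rose and 0 fell, where 16.8% of all tested genes rose and 20.0% fell, and the median log2 fold change was 0.17 beside -0.04 over all tested genes. The gene that rose was Tom40, at 58.5 and 57.0 RPKM in Zeus knockdown testes against 53.7 and 53.6 RPKM in wildtype, a log2 fold change of 0.26 (SE 0.09, adjusted p = 0.0386 by edgeR). This call was lost without any 1 of the Zeus knockdown or wildtype libraries, with log2 fold changes of 0.24, 0.27, 0.26 and 0.25 and adjusted p from 0.166 to 0.237, and it was lost under 8 of 16 alternatives in all, among them library totals as the scale (0.09, adjusted p = 0.427).

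The copies did not pass in the Zeus knockdown. Transcripts of tomboy20 stood at 525 and 513 RPKM there, against 483 and 508 RPKM in wildtype (log2 fold change 0.22, 95% interval -0.03 to 0.46, adjusted p = 0.152). For tomboy40 the levels were 305 and 308 RPKM in the Zeus knockdown and 282 RPKM in each wildtype library (log2 fold change 0.27, interval 0.01 to 0.53, adjusted p = 0.0991). Both copies thus lay above wildtype in each Zeus knockdown library by less than the test could call. The inner membrane gene nearest the threshold, Tim17b2, measured 155 and 154 RPKM in the Zeus knockdown and 142 and 139.7 RPKM in wildtype (log2 fold change 0.28, adjusted p = 0.0653). Levels of Tim17a1 were 113 and 105 RPKM in the Zeus knockdown and 122 RPKM in each wildtype library, and its log2 fold change was -0.01 (interval -0.26 to 0.23). Intervals of Tom20, Tim17a2 and Tim17b1 likewise included 0, with log2 fold changes of 0.13, 0.11 and 0.12. The 4 Tim17 genes summed to 410.3 and 390.4 RPKM in Zeus knockdown testes, against 408 and 397 RPKM in wildtype. Within that sum Tim17a1 took 27.5% and 26.9% in the Zeus knockdown, against 29.8% and 30.6% in wildtype, and Tim17b2 took 37.7% and 39.3%, against 34.8% and 35.2%. A fit to the Zeus knockdown and wildtype libraries alone, without the wider spread of the Caf40 knockdown, called 5 of the 8 higher. These were Tom40, Tom20, tomboy20, tomboy40 and Tim17b2. In that fit 2710 of the 10223 tested genes were called higher, against 1715 with all 6 libraries.

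Of the 26 other import genes, 5 (19.2%) rose and 0 fell in the Zeus knockdown. The share of rises was near that of all tested genes, of which 16.8% rose and 20.0% fell. The rises were in Hsp60D, Tim9b, Alr, CG7394 and CG8728, and the next smallest p belonged to Tim13, which did not pass (log2 fold change 0.28, adjusted p = 0.054). Hsp60D, a chaperonin copy, measured 279 RPKM in each Zeus knockdown library, against 206 and 211 RPKM in wildtype, a log2 fold change of 0.57 (SE 0.11, adjusted p = 0.00174). The sulfhydryl oxidase Alr, which serves protein import into the intermembrane space, measured 89.5 and 88.0 RPKM against 74.5 and 76.5 RPKM (log2 fold change 0.38). The log2 fold changes were 0.41 for Tim9b, 0.31 for CG7394 and 0.32 for CG8728, the alpha subunit of the matrix processing peptidase. Tim9b shares all 1754 of its exonic bases with Pstk on the same strand, and the files give both genes the same reads in all 6 libraries, so its value cannot be told apart from that of Pstk. Exons of Alr and CG7394 also overlap other genes. Fewer rises were called without any 1 Zeus knockdown or wildtype library, both in this list and over all tested genes. In the fit to the Zeus knockdown and wildtype libraries alone, 17 of the 26 rose, where 2710 of the 10223 tested genes rose.

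The germ cell markers also moved in the Zeus knockdown. Of 8 spermatocyte genes 0 rose and 2 fell (summed level 487 to 496 RPKM against 590 to 604 RPKM in wildtype), of 11 spermatid genes 5 rose and 0 fell (17461 to 17554 RPKM against 14169 to 14452 RPKM), and of 4 stem cell and spermatogonial genes 4 fell (31.7 to 32.0 RPKM against 53.4 to 55.5 RPKM). Of 5 muscle sheath genes 3 rose and 1 fell, and of 6 cyst and hub genes 2 rose. Of 3 tested accessory gland genes 1 rose and 1 fell, and of 2 tested fat body genes 1 fell. Muscle sheath genes summed to 40.6 to 51.0 RPKM against 37.6 to 39.0 RPKM, cyst and hub genes to 44.2 RPKM in each library against 41.9 to 43.4 RPKM, accessory gland genes to 12.2 to 14.1 RPKM against 7.98 to 8.89 RPKM, and fat body genes to 4.32 to 4.45 RPKM against 4.59 to 7.11 RPKM, with Yp2 and Lsp1alpha at 0 reads in the Zeus knockdown. Their part in the levels of the import genes was not tested.

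**Figure D4:**
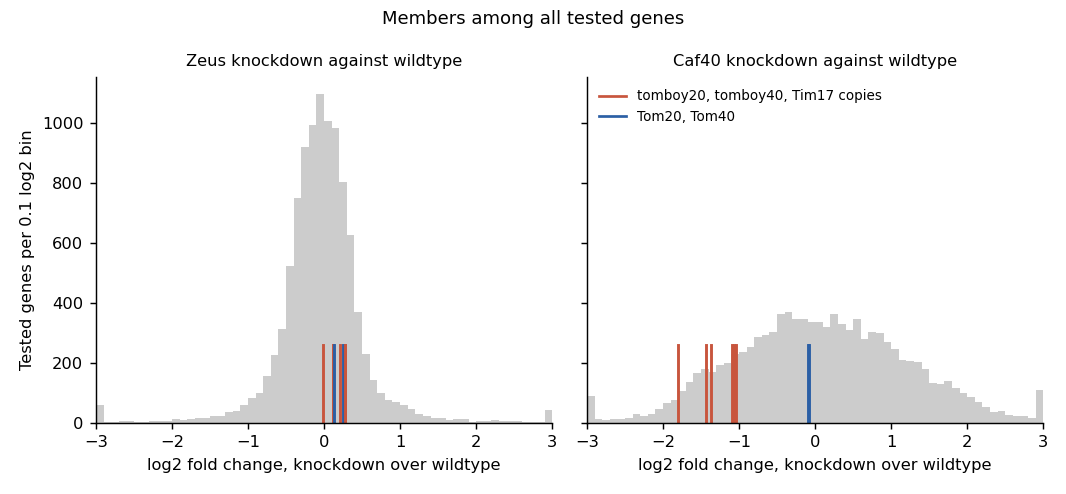
Number of tested genes per bin of log2 fold change, knockdown over wildtype, in the Zeus knockdown (left) and the Caf40 knockdown (right), with genes beyond 3 in either direction placed in the end bins. Lines upright on the axis mark the 8 genes, red for tomboy20, tomboy40 and the Tim17 genes and blue for Tom20 and Tom40. In the Caf40 knockdown the red lines lie between -1.80 and -1.05 and the blue lines near the middle of all genes.

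Set directly against each other, the knockdowns differed in all 8 genes in the TMM fit and in 6 with library totals as the scale. Relative to the Caf40 knockdown, 8 of the 8 genes were called higher in the Zeus knockdown, where 40.2% of all tested genes were higher and 43.3% lower, and the log2 differences ranged from 0.22 to 1.79 with a median of 1.32. Tim17a1 had the largest difference, with 113 and 105 RPKM in Zeus knockdown testes against 35.8 and 45.5 RPKM in the Caf40 knockdown (log2 difference 1.79, SE 0.12, adjusted p = 6.03e-09 by edgeR). The differences were 1.65 for Tim17b2, 1.55 for Tim17b1, 1.36 for tomboy40, 1.28 for tomboy20 and 1.16 for Tim17a2. In each of these the groups did not overlap in RPKM. The share of all tested genes without overlap was not counted, so this does not set these genes apart. Of the 26 other import genes 24 were called higher and 0 lower, which became 14 higher and 2 lower with library totals as the scale and 26 higher with equal medians. Over all 10223 tested genes, 3145 were called higher and 5480 lower with library totals, and 5135 higher and 3254 lower with equal medians.

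For the general subunits the direction of this difference was set by the scaling. Tom20 stood at 226 and 215 RPKM in Zeus knockdown testes, against 249 and 241 RPKM in Caf40 knockdown testes, so its RPKM was lower in the Zeus knockdown while the log2 difference after TMM scaling was 0.22 (adjusted p = 0.0344). The Tom20 call was lost without any 1 of the Zeus knockdown or wildtype libraries (adjusted p from 0.0621 to 0.246). Tom40 stood at 58.5 and 57.0 RPKM in Zeus knockdown testes and 63.5 and 55.3 RPKM in Caf40 knockdown testes, with a log2 difference of 0.34 (adjusted p = 0.00289). With library totals as the scale the differences were -0.16 and -0.05 and neither passed (adjusted p = 0.0859 and 0.657). The share of tomboy20 in its pair was 69.9% and 70.5% in the Zeus knockdown, against 50.2% and 55.6% in the Caf40 knockdown, and that of tomboy40 was 83.9% and 84.4%, against 68.2% and 75.8%. These are log2 differences of the ratios of 1.07 and 1.03 (exact permutation p = 0.333 each, the smallest value possible with 2 against 2 libraries). Between the Zeus knockdown and wildtype the log2 ratio of tomboy40 to Tom40 differed by 0.01, with overlapping groups (exact permutation p = 1), and that of tomboy20 to Tom20 by 0.09 (exact permutation p = 0.333).

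The genes whose pattern over the 6 libraries was most like that of the copies and of the general subunits were found by the root mean square difference of log2 TMM-scaled expression after centring each gene. For tomboy20 these were Bfc, CG30384 and CG3942, which differed from it by 0.0199, 0.0205 and 0.0225 on the log2 scale. The closest genes to tomboy40 were Rsbp15 (0.0175), Hsp60C (0.0210) and CG9101 (0.0214). Hsp60C is thus the one other import gene among them, averaging 1157 RPKM in the Zeus knockdown, 580.1 RPKM in the Caf40 knockdown and 1051 RPKM in wildtype. For Tom20 the closest were Ppcdc (0.0193), wmd (0.0208) and CG11168 (0.0225), and for Tom40 they were Ypel (0.0287), Nadk1b (0.0292) and AMPKalpha (0.0309), the last a subunit of an energy-sensing kinase. The likeness is a description over 6 libraries of 3 groups, among 10223 genes.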

How the data were processed

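Per the labels' protocols, single-end messenger RNA libraries were made from dissected testes. The submitters' processing notes name Bowtie and the dm3 build. Versions, the annotation and the rule for multiply matching reads were not given in the sources used here. The authors deposited, per the file headers, a raw read count per gene, split into genome and exon junction reads, the listed exon length, the library total and an RPKM value.

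Of 15178 identifiers, 12862 (84.7%) matched a current symbol, and exon structures came from Ensembl release 115 (BDGP6), a newer build whose coordinates are not given. No sequence or genome was used here. Counts were tested with edgeR 4.0.16 in R 4.3.3 (TMM, quasi-likelihood, two-sided, group means, all 6 libraries sharing 1 estimate of the spread). The common biological coefficient of variation was 0.0747 and TMM factors ran between 0.881 and 1.19. Each standard error was obtained by dividing the log2 fold change by the square root of the F statistic. The scripts were tested on simulated data. The genes and lists were chosen with earlier results of these data known. Besides the 8 genes, import genes are named if they changed at least 2-fold, then the 6 others with the smallest p, and 3 genes of nearest pattern for each of tomboy20, tomboy40, Tom20 and Tom40. Alternatives covered scaling, filter, DESeq2 1.42.0, limma 3.58.1, genome reads only, the 2 groups compared, a replicate block and leaving out each library. Counts of every replicate pair differed by more than sampling noise (chi-square per degree of freedom of 2.06 or more). D. simulans and D. yakuba libraries were not used here.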

Additional observations from a re-analysis of the deposited data

How the results depend on the processing

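In the Caf40 knockdown against wildtype, the 6 falls and the 2 genes that did not pass gave the same count under 15 of 16 alternatives, and with equal medians all 8 fell. Tim17a1 ranged from -2.10 to -1.57, and tomboy40 and tomboy20 kept their calls in all 16. The signs of Tom20 and Tom40 there turned to 0.13 and 0.14 with library totals, 0.13 and 0.14 with limma on log2(RPKM + 1), and 0.13 and 0.14 with a pseudocount of 0.1, none past the threshold. For Zeus minus Caf40 knockdown they turned to -0.16 and -0.045, -0.15 and -0.038, and -0.15 and -0.038 under the same settings. These scalings move the median of all genes, library totals by -0.16, 0.22 and -0.38 and equal medians by 0.10, -0.30 and 0.40 (Zeus, Caf40, and Zeus minus Caf40) on the log2 scale. Over all genes the calls higher and lower moved to 1000 and 3567 with library totals and 2456 and 1321 with equal medians, against 1715 and 2046, in the Zeus knockdown, and to 4986 and 3174 and 3271 and 4953, against 4281 and 3949, in the Caf40 knockdown. The cause of each turned sign was not tested.

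The Zeus knockdown calls depended on the processing. Members called (1 as reported) numbered 0 with library totals, with no filter and with limma at either pseudocount, 3 with equal medians, and 5 with only the groups compared, and from 0 to 5 with 1 library left out. The other import genes called (5 as reported, all higher) numbered 3 with library totals, of which 2 rose and 1 fell. They numbered 3 with limma at either pseudocount, 15 with equal medians and 17 with only the groups compared, all higher. Over all genes 1625 to 5360 were called with 1 library left out, against 3761. With only the groups compared, 5350 of all 10223 tested genes were called. Signs turned for several values near 0. Tim17a1 was 0.0044 with DESeq2 size factors, 0.0049 with DESeq2, 0.093 with equal medians and from -0.066 to 0.043 with 1 library left out. Tim17a2, Tim17b1 and Tom20 were -0.047, -0.043 and -0.033 with library totals, -0.032, -0.029 and -0.020 with limma on log2(RPKM + 1), and -0.033, -0.030 and -0.020 with a pseudocount of 0.1. The Zeus knockdown minus wildtype difference in the log2 ratio of tomboy40 to Tom40 ranged from -0.011 to 0.037 without 1 library.

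With a replicate block, 1, 6 and 8 members were called (Zeus, Caf40, and Zeus minus Caf40), as without it, and 3615 genes in the Zeus knockdown. Same-numbered replicates did not deviate together (correlations of -0.019, -0.048 and -0.025 across genes). Whether same-numbered libraries were prepared together cannot be told from this. With groups of 2 libraries, small differences such as those of the Zeus knockdown remain near the limit of the test.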
